A study of Mus musculus with 3 samples.

Results

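The miR-34 and miR-449 family was examined as 6 mature miRNAs, mmu-miR-34a-5p, mmu-miR-34b-5p, mmu-miR-34b-3p, mmu-miR-34c-5p, mmu-miR-34c-3p and mmu-miR-449a-5p, found by name among the 627 mature miRNAs of the count table. All 6 were in the table, each in 1 row, and 5 of them passed the minimum level used here, a normalized count of 10 on average, as did 587 of the 627 miRNAs. miR-449a-5p, with a mean of 9.65, did not. Ovaries of newborn CD1 mice were cultured for 3 days with 0, 10 or 100 μM di (2-ethylhexyl) phthalate (DEHP), a plasticizer. DEHP was dissolved in DMSO, the vehicle that the 0 μM ovaries received alone, and each small RNA library pooled the ovaries of many newborn females. There was 1 library per concentration, so the values below compare 3 libraries with no replicate and no test, and the 95% intervals hold counting error only.

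The miR-34 family is known as a set of direct targets of the transcription factor p53 in DNA damage. Its 5p arms lower the proteins of cell cycle and survival genes, which favors arrest and apoptosis. In mammals, miR-34a is made from a locus of its own and is found in many tissues, while miR-34b and miR-34c come from a shared primary transcript that is abundant in ciliated epithelia, such as that of the oviduct, and in male germ cells. miR-34c-5p and miR-449a-5p belong to the seed group of miR-34a-5p, and miR-449a lies in a host gene of ciliated cells. The seed, bases 2 to 8 of the mature miRNA, is the stretch that pairs with target mRNAs.

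RefSeq sequences on GRCm38.p6, the assembly known as mm10 that the submitters' processing notes name, were found for 5 of the 6 members, all but miR-34c-5p. They are shown 5′ to 3′ with the seed in capitals, because the arms of the family fall into 2 seed groups that had different values in the libraries.
mmu-miR-34a-5p: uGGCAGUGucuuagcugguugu
mmu-miR-34b-5p: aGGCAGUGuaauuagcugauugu
mmu-miR-449a-5p: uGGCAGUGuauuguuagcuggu
mmu-miR-34b-3p: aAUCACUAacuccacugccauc
mmu-miR-34c-3p: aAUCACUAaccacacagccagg

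The 5p arms shown had the same 7 bases in the seed and differed after it. Counted from the 5′ end without gaps, miR-34a-5p and miR-449a-5p had the same base at 15 of 22 positions, and miR-34a-5p and miR-34b-5p at 11 of 22. The 3p arms of miR-34b and miR-34c had a seed of their own and the same base at 17 of 22 positions. Among the 529 miRNAs of the table with a RefSeq sequence, 3 carried the seed of miR-34a-5p and 2 that of miR-34b-3p, and these were the 5 members shown.

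Mir34a (plus strand of chromosome 4, 150068454 to 150068555) overlaps an exon of Gm37795, which GENCODE M21 lists as a candidate gene still to be checked by experiment. Mir34b (chromosome 9, 51103562 to 51103645) and Mir34c (chromosome 9, 51103034 to 51103110) lie on the minus strand with 451 bases between them. Both are inside the bounds of Btg4, a protein-coding gene on the opposite strand known for its part in clearing maternal mRNA in oocytes, and overlap none of its exons. Mir449a (plus strand of chromosome 13, 113037534 to 113037624) is inside Cdc20b and outside its exons.

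The libraries had 5253367, 5064602 and 5952274 counts at 0, 10 and 100 μM DEHP. The 10 most abundant miRNAs held 45.4%, 45.6% and 70.5% of them, so the 100 μM library left fewer counts for the family, and the scaling between libraries matters there. Counts were divided by the median-of-ratios size factors of DESeq2 (1.38, 1.35 and 0.546), and log2 ratios were taken after adding 0.5 to each normalized count. With total counts in place of these factors, the log2 ratios of all miRNAs shifted by a median of -1.51 between 100 and 0 μM and of 0.02 between 10 and 0 μM. All levels are relative to the other miRNAs of a library, and in pooled ovaries fewer cells of a type and less RNA per cell cannot be told apart. Small RNA libraries capture different sequences with different efficiency, which the order of the levels of different miRNAs also reflects.

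In the control ovaries the family was carried mainly by miR-34c-5p. The 6 members together took 0.360% of all counts in the control library (Wilson 95% interval 0.355% to 0.365%). Their part was 0.168% with 10 μM DEHP (0.165% to 0.172%) and 0.0480% with 100 μM (0.0463% to 0.0498%). At 0 μM, miR-34c-5p ranked 54 of the 627 miRNAs by count, miR-34b-5p 137, then miR-34a-5p, and miR-34b-3p 326, miR-34c-3p 352 and miR-449a-5p 548. Neighbours in that order had intervals that did not overlap at 0 μM, apart from miR-34b-3p (129 to 171 normalized counts) and miR-34c-3p (95.5 to 132).

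The 5p arms of miR-34b and miR-34c were lower already at 10 μM DEHP. miR-34c-5p had 14983 counts at 0 μM, 6379 at 10 μM and 2404 at 100 μM, which are 10872, 4732 and 4404 normalized counts. Both exposed libraries were thus below the control and close to each other after scaling. The log2 ratio was -1.20 between 10 and 0 μM (exact Clopper-Pearson 95% interval -1.24 to -1.16), and the level at 10 μM was 43.5% of the control. Between 100 and 0 μM it was -1.30 (-1.37 to -1.24), and between 100 and 10 μM -0.10 (-0.17 to -0.04). This last step depends on the scaling, since with total counts it was -1.64.

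miR-34b-5p had 2719, 1098 and 127 counts at 0, 10 and 100 μM DEHP, or 1973, 815 and 233 normalized counts. It was lower again in the 100 μM library, by a larger step than miR-34c-5p. Its log2 ratio was -1.28 between 10 and 0 μM (-1.38 to -1.17), -3.08 between 100 and 0 μM (-3.35 to -2.83) and -1.81 between 100 and 10 μM (-2.08 to -1.54). The level at 100 μM was 11.8% of that at 0 μM. At 10 μM, 20 of the 587 miRNAs had a lower ratio than miR-34b-5p and 22 a lower ratio than miR-34c-5p.

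miR-34a-5p, from the separate locus, had 832, 663 and 63 counts at 0, 10 and 100 μM DEHP, or 604, 492 and 115 normalized counts. The 10 μM library was close to the control and the 100 μM library was the low one. The log2 ratio was -0.30 between 10 and 0 μM (-0.45 to -0.15), and 175 of the 587 miRNAs were lower. Between 100 and 0 μM it was -2.38 (-2.78 to -2.02), and between 100 and 10 μM -2.09 (-2.49 to -1.72).

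miR-449a-5p was near the limit of detection, with 18, 14 and 3 counts at 0, 10 and 100 μM DEHP, or 13.1, 10.4 and 5.50 normalized counts. Its log2 ratio was -0.32 between 10 and 0 μM (-1.45 to 0.76) and -1.18 between 100 and 0 μM (-3.65 to 0.53). With this scaling no difference could be detected at this depth. With total counts the ratio between 100 and 0 μM was -2.56.

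**Figure D1:**
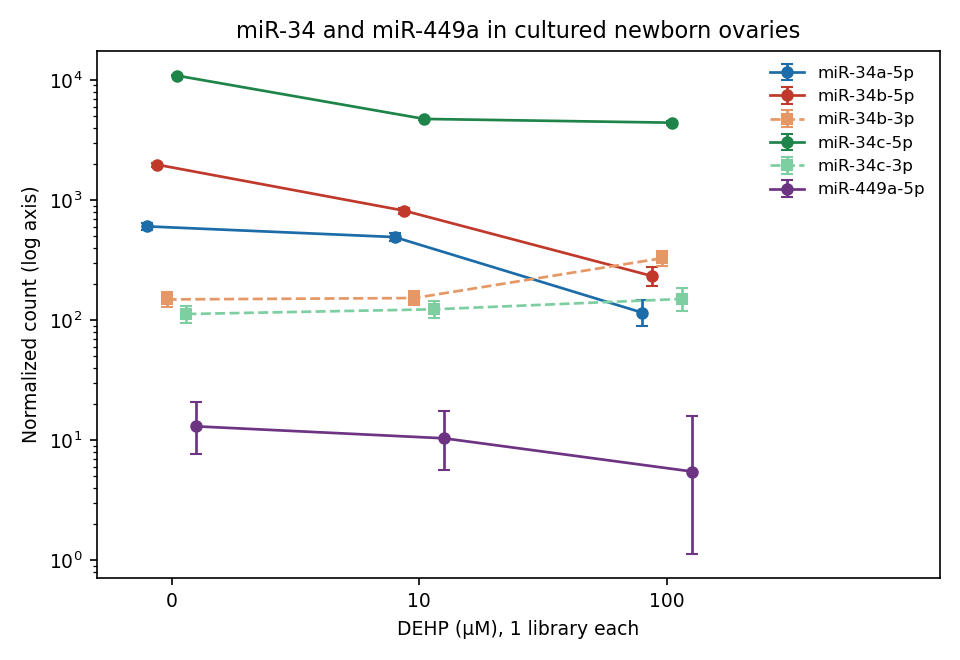
Normalized counts (log axis) of the 6 members at 0, 10 and 100 μM DEHP, 1 library each, with exact Poisson 95% intervals. Circles with solid lines are 5p arms and squares with dashed lines are 3p arms. miR-34c-5p goes from 10872 to 4732 and 4404, while miR-34a-5p stays near its control value at 10 μM (604 and 492) and is at 115 at 100 μM.

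The 3p arms did not go along with their 5p partners. miR-34b-3p had 206 counts at 10 μM DEHP, 1 more than at 0 μM, and 179 at 100 μM. At 0, 10 and 100 μM these were 149, 153 and 328 normalized counts. Its log2 ratio was 0.04 between 10 and 0 μM (-0.25 to 0.33) and 1.14 between 100 and 0 μM (0.84 to 1.44), and with total-count scaling the latter turned to -0.37. miR-34c-3p had 155, 166 and 82 counts, or 112, 123 and 150 normalized counts. Its log2 ratio was 0.13 between 10 and 0 μM (-0.19 to 0.46) and 0.42 between 100 and 0 μM (0.01 to 0.81), which turned to -1.09 with total counts and to -0.35 with library sizes without the 10 most abundant miRNAs. At 10 μM the 3p counts were thus close to those of the control, and the direction at 100 μM depends on the scaling.

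The share of the 3p arm among the counts of both arms of a hairpin does not depend on the scaling. For miR-34b it was 7.01% in the control (Wilson 95% interval 6.14% to 7.99%). It was 15.8% with 10 μM DEHP (13.9% to 17.9%) and 58.5% with 100 μM (52.9% to 63.9%). The 5p arm, 13.3 times the 3p arm in the control, was therefore the smaller of the pair at 100 μM. For miR-34c the 3p share was 1.02% (0.876% to 1.20%), 2.54% (2.18% to 2.95%) and 3.30% (2.67% to 4.08%), and the 5p arm stayed the larger in each library.

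On the log2 scale, the ratio of 3p to 5p between 10 and 0 μM DEHP was higher by 1.32 for miR-34b (exact conditional 95% interval 1.01 to 1.62) and by 1.33 for miR-34c (1.003 to 1.66). Both hairpins had moved by about the same amount at 10 μM. Between 100 and 0 μM the shift was 4.22 for miR-34b (3.82 to 4.62) and 1.72 for miR-34c (1.31 to 2.12). Of the 174 arm pairs in which both arms had the minimum level, 9 had a larger shift toward 3p than miR-34b and 8 a larger one than miR-34c at 10 μM, where the median pair was at -0.04 with an interquartile range of -0.42 to 0.40. At 100 μM the median pair was at 0.44 and the interquartile range was -1.09 to 1.72. There 9 of the 174 pairs lay above miR-34b and 43 above miR-34c. The larger arm changed in 24 of the 174 pairs between 0 and 100 μM, from 5p to 3p in 12 of the 85 pairs with the larger 5p arm in the control, miR-34b among them.

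**Figure D2:**
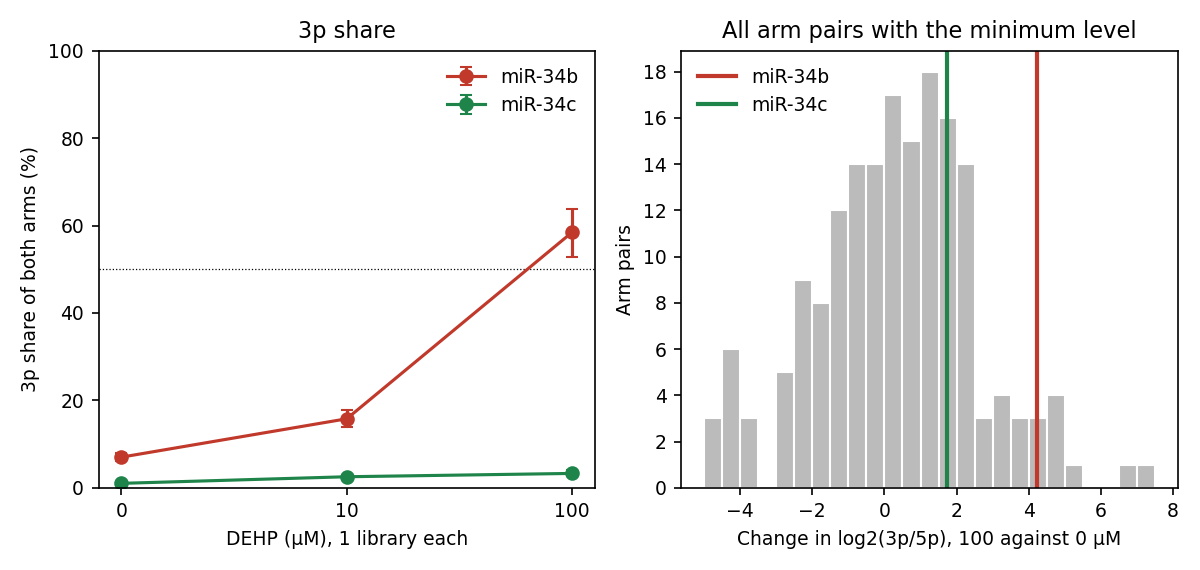
Left, the share of the 3p arm in the counts of both arms (%) at 0, 10 and 100 μM DEHP, 1 library each, with Wilson 95% intervals and a dotted line at equal arms; miR-34b goes from 7.01% to 58.5% and miR-34c from 1.02% to 3.30%. Right, the number of arm pairs by their change in log2(3p/5p) between 100 and 0 μM for 174 pairs, with miR-34b at 4.22 far to the right and miR-34c at 1.72 near the upper quartile.

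miR-34a-5p and the 34b/34c pair were also compared directly. The scaling factor cancels when the log2 ratio of 1 miRNA is subtracted from that of another. Between 10 and 0 μM DEHP, the mean log2 ratio of miR-34b-5p and miR-34c-5p was -1.24 and lay below that of miR-34a-5p by -0.94 (95% counting interval -1.10 to -0.79). Between 100 and 10 μM the mean of the pair was at -0.95 and miR-34a-5p at -2.09, a difference of 1.13 (0.73 to 1.53). It was carried by miR-34c-5p, which lay above miR-34a-5p by 1.99 (1.61 to 2.39), while the difference of 0.28 between miR-34b-5p and miR-34a-5p had an interval that holds 0 (-0.19 to 0.77). Over the whole span from 0 to 100 μM the mean of the pair, -2.19, and miR-34a-5p differed by 0.19 (-0.20 to 0.58), an interval that holds 0.

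That mean hides a difference inside the pair. Between 10 and 0 μM, miR-34b-5p and miR-34c-5p differed by -0.08 in their log2 ratios (-0.19 to 0.03), whereas between 100 and 0 μM miR-34b-5p lay below miR-34c-5p by -1.78 (-2.06 to -1.52). Against miR-34a-5p between 100 and 0 μM, miR-34b-5p was lower by -0.70 (-1.16 to -0.22) and miR-34c-5p higher by 1.08 (0.71 to 1.48). The 3p arms differed the other way at 100 μM, with miR-34b-3p above miR-34c-3p by 0.72 (0.22 to 1.23).

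The make-up of the family followed from these differences. miR-34c-5p held 80.8% of the 5p counts of the family in the control (Wilson 95% interval 80.2% to 81.3%). It held 78.2% with 10 μM DEHP (77.3% to 79.1%) and 92.6% with 100 μM (91.5% to 93.5%). The share of miR-34b-5p was 14.7%, 13.5% and 4.89%. The share of miR-34a-5p was highest at 10 μM, with 8.13% (7.56% to 8.74%), against 4.48% at 0 μM and 2.43% at 100 μM.

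**Figure D3:**
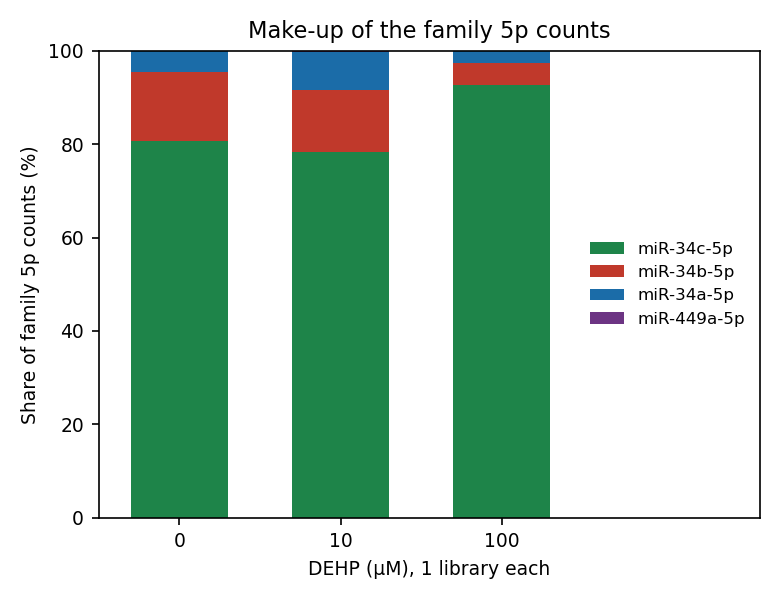
Share (%) of miR-34c-5p, miR-34b-5p, miR-34a-5p and miR-449a-5p in the 5p counts of the family at 0, 10 and 100 μM DEHP, 1 library each, as stacked bars. miR-34c-5p takes 80.8%, 78.2% and 92.6%, and miR-34b-5p shrinks from 14.7% to 4.89%, while miR-449a-5p is too rare to be seen.

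Summed over miR-34a-5p, miR-34b-5p and miR-449a-5p, the members of the miR-34a-5p seed group whose sequence is shown, there were 3569, 1775 and 193 counts at 0, 10 and 100 μM DEHP. The log2 ratio of the sum was -0.98 between 10 and 0 μM (-1.06 to -0.89) and -2.87 between 100 and 0 μM (-3.09 to -2.66). This sum leaves out miR-34c-5p, the most abundant 5p arm of the family. With it added, a sum chosen after the values were seen, all 4 family 5p arms gave -1.15 and -1.50.

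A log2 ratio below -2 was found between 10 and 0 μM for 0 of the 5 members with the minimum level and for 0.681% of the 587 miRNAs. The study set a log2 limit of this size jointly with a false discovery rate limit, which is not applied here, so these counts are not its calls. Below -1 there were 2 of the 5 members, miR-34b-5p and miR-34c-5p, beside 5.11% of all miRNAs. Between 100 and 0 μM, 2 of the 5 were below -2, miR-34a-5p and miR-34b-5p, beside 9.37% of all. For these concentrations the study's own list of changed miRNAs holds the ID of miR-34b-5p and of no other member. It gives a negative log2 fold change there, smaller in size than the ratio found here. Between 100 and 10 μM, 1 of the 5 was below -2, miR-34a-5p, beside 8.69%. Every pair of these comparisons shares a library, and none has a replicate. The median log2 ratio of the 5 members was -0.30 between 10 and 0 μM, where that of all miRNAs was 0.02, and -1.30 between 100 and 0 μM, where that of all was -0.01. By arm, the 3 members of the 5p side had a median of -2.38 between 100 and 0 μM and the 2 of the 3p side 0.78, though both of the latter were below 0 with total counts. Over all miRNAs the medians were -0.17 for 270 5p arms and 0.25 for 274 3p arms.

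**Figure D4:**
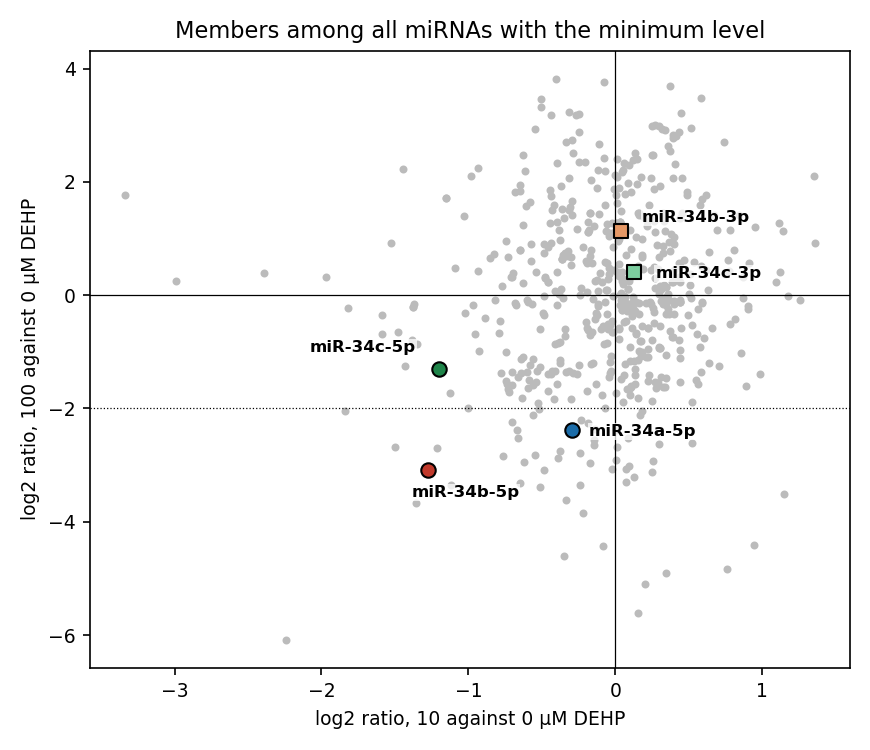
Log2 ratio between 10 and 0 μM DEHP (x axis) against log2 ratio between 100 and 0 μM (y axis) for the 587 miRNAs with the minimum level (grey), with the 5 members in color, circles for 5p and squares for 3p arms. The dotted line marks -2. miR-34b-5p and miR-34c-5p lie to the left of most miRNAs, at -1.28 and -1.20 on the x axis, miR-34a-5p lies below the line near the middle, and both 3p arms lie above 0 at 100 μM, where total counts would put them below it.

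The miRNAs with the most similar pair of log2 ratios were sought for each 5p arm, by Euclidean distance over the 2 ratios to the control, which share the 0 μM library. Nearest to miR-34a-5p were miR-380-3p (distance 0.0123), miR-181a-5p (0.159) and miR-154-5p (0.161). Nearest to miR-34b-5p were miR-30e-5p (0.308), miR-376a-3p (0.387) and miR-99a-3p (0.453). miR-30e-5p, the closest to miR-34b-5p, had log2 ratios of -1.12 and -3.35. Nearest to miR-34c-5p were miR-880-3p (0.238), miR-29c-3p (0.411) and miR-675-5p (0.430). Some neighbours had few counts at 100 μM, such as miR-376a-3p with 3, miR-99a-3p with 5 and miR-675-5p with 9, so their distances are uncertain. The neighbours of the 3 arms were different miRNAs, as their ratios differ.

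Other miRNAs that p53 is known to induce or to help process had mixed values. Of 10 listed, 9 were in the table and had the minimum level. Between 10 and 0 μM DEHP 0 of the 9 lay beyond 2 in either direction, where 0.681% of all miRNAs were below -2 and 0% above 2, and their median log2 ratio was 0.15. Between 100 and 0 μM 2 of the 9 were below -2 and 0 above 2, beside 9.37% and 10.4% of all miRNAs, with a median of -0.36. The 2 were miR-194-5p (1648, 1977 and 105 counts, log2 ratio -2.63) and miR-141-3p (157, 171 and 1 counts). The 3 with higher values at 100 μM were miR-143-3p, processed with the help of p53 (log2 ratio 1.92, or 0.40 with total counts), miR-192-5p, which stands beside a miR-194 hairpin in the genome (1.17, or -0.35 with total counts), and miR-200c-3p (1.13, or -0.38 with total counts). miR-200c-3p was higher at 10 μM too, with a log2 ratio of 1.14. Of 4 miRNAs known to act on the p53 mRNA, all in the table, 0 lay beyond 2 in any of the 3 comparisons with the median-of-ratios factors. Between 100 and 10 μM, 8.69% of all miRNAs were below -2 and 12.3% above 2. miR-125b-5p, the best known of them, had log2 ratios of 0.78 and -0.51 at 10 and 100 μM against the control. With total counts it was at -2.03 between 100 and 0 μM and at -2.83 between 100 and 10 μM. That scaling put 35.9% and 38.1% of all miRNAs below -2. When the 10 most abundant miRNAs were left out of the library sizes, it was at -2.10 between 100 and 10 μM, beside 20.2% of all.

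The labelled tissue was checked with both arms of miR-202, a miRNA of the gonadal soma. miR-202-5p had 30017, 39447 and 17952 normalized counts at 0, 10 and 100 μM DEHP. miR-202-3p had 1171, 935 and 2012, with log2 ratios to the control of -0.32 and 0.78 against 0.39 and -0.74 for the 5p arm, so the arms were on opposite sides of 0 at both concentrations, although with total counts the 3p arm was at -0.74 at 100 μM, on the side of the 5p arm. Since miR-34b and miR-34c are known as abundant in ciliated epithelium and in male germ cells, miRNAs of several cell types were set beside them in these female ovaries. Of 5 listed for ciliated cells only miR-34b-5p, miR-34c-5p and miR-449a-5p were in the table, so this list is no separate measure. Of 10 epithelial miRNAs all were in the table, and their summed normalized count was 17580, 19432 and 43990. The list went both ways, with 7 higher and 3 lower at 10 μM (median log2 ratio 0.32) and 5 higher and 5 lower at 100 μM (median -0.28), where total counts put 8 lower. The larger sum at 100 μM came from miR-182-5p (3006 to 22692 normalized counts) and miR-183-5p (1761 to 12436), and with total counts its log2 ratio to the control turned to -0.19. Of 6 germ cell miRNAs of the miR-290 cluster 5 were in the table, with sums of 2593, 1870 and 5494. All 5 were lower at 10 μM, and 4 were higher at 100 μM, most of all miR-294-3p (336 to 2184), where total counts left 1 higher and turned the log2 ratio of the sum to -0.43. At 10 μM the log2 ratios of these 5 went from -0.67 for miR-293-3p to -0.18 for miR-292a-3p, whose interval holds 0 (-0.39 to 0.03). Their median was -0.38, where all miRNAs had a median of 0.02 and a lower quartile of -0.37, so ratios below 0 were common. At 100 μM their median was 0.97, inside the interquartile range of all miRNAs (-1.06 to 1.12). The 5 belong to 1 cluster, so they are not separate measures. The 4 blood miRNAs summed to 980, 1041 and 867, mostly from miR-486a-5p (817, 875 and 733). At 10 μM the log2 ratios of miR-451a (0.13), miR-486a-5p (0.10) and miR-223-3p (0.03) had intervals that hold 0. miR-144-3p, with 16, 3 and 2 counts, had a log2 ratio of -2.15 at 10 μM. With total counts the log2 ratio of the blood sum at 100 μM was -1.69. The 2 arms of miR-126a, of endothelium, summed to 46170, 52252 and 9855, and were low at 100 μM as were miR-34a-5p and miR-34b-5p. None of the markers in the table was at 0 counts in any library. At 0 and 10 μM this had to be so, since the lowest counts of any miRNA there were 10 and 2. At 100 μM miR-141-3p had 1 count. The part of these cells in the values of the family was not tested.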

How the data were processed

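Small RNA of cultured ovaries was sequenced by the authors, with 1 library per DEHP concentration. Per the study's methods, reads were trimmed, aligned to the mouse genome with bowtie2 and quantified with miRDeep2. The deposited values are raw counts, in whole numbers, for each mature miRNA of each precursor. The submitters' processing notes name mm10 and DESeq2. Tool versions, and how reads shared by close family members were assigned, are not given in the sources used here. The lowest count at 0 μM was 10, so miRNAs seen only after DEHP are not in the table.

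Where a mature ID filled several rows, the row with the largest total was used. Size factors came from DESeq2 1.42.0 in R 4.3.3 and alternative factors from edgeR 4.0.16. Ratios and intervals were computed in Python 3.11.15 with scipy 1.17.1 and tested on simulated data. Only miRNAs whose normalized counts averaged 10 or more entered the counts of miRNAs past a limit. The edgeR quasi-likelihood test could not be run without replicates, so no p-value is given. The floor was set at 3 counts. Intervals cover counting error only, since there is 1 library per concentration. They treat PCR copies of a molecule as separate reads. The interval of the mean of miR-34b-5p and miR-34c-5p against miR-34a-5p used a normal approximation on the log scale.

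The miRNAs named are the members, those of the p53 and cell type lists, and the 3 nearest to each of miR-34a-5p, miR-34b-5p and miR-34c-5p. The members and lists were chosen with earlier results of these data known. Alternatives were other scalings (TMM, total counts, upper quartile, and totals that leave out the 10 most abundant miRNAs), adding 1 to the normalized counts, other minimum levels, summed rows and a threshold of 1. miR-34a-3p, miR-449a-3p, miR-449b and miR-449c were not analysed here.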

Additional observations from a re-analysis of the deposited data

How the results depend on the processing

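No paired analysis was possible because each concentration has a single library, and none could be dropped. Scaling to total counts put 4 members below -2 between 100 and 0 μM DEHP and 3 between 100 and 10 μM, with 35.9% and 38.1% of all miRNAs. It lowers the ratios at 100 μM and also lets 593 miRNAs pass the minimum, among them miR-449a-5p (-2.56 and -2.26), which is 1 of the members in each count. Library sizes without the 10 most abundant miRNAs gave 2 between 100 and 10 μM, with 20.2% of all miRNAs below -2. Between 100 and 0 μM they gave 3, with 22% of all miRNAs. At a threshold of 1 the count was 2 members between 10 and 0 μM, beside 5.11% of all miRNAs, and again 2 for 100 against 10 μM. In that last comparison the lower quartile of all miRNAs was -0.99, so a ratio near -1 was common. The other settings left the 3 counts within 1.5 times. The log2 ratio of miR-34b-3p turned to -0.37 between 100 and 0 μM and to -0.43 between 100 and 10 μM with total counts. That of miR-34c-3p turned to -1.09 and -1.24 under the same scaling, and to -0.35 and -0.52 when the 10 most abundant miRNAs were left out of the library sizes. These 6 were the only sign changes among 120 values of single miRNAs and arm ratios under an alternative, and 98 stayed within their counting interval. Those 98 include values that could not move, such as the arm ratios under summed rows, since each member fills 1 row.

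The difference between the 34b/34c pair and miR-34a-5p between 10 and 0 μM was -0.28 with the mean of all 4 arms, and between 100 and 0 μM it was 1.02 with the summed 4 arms and 1.67 with their mean, because the 3p arms then enter. The log2 ratio of the summed miR-34a-5p, miR-34b-5p and miR-449a-5p between 100 and 0 μM was -4.39 with total counts. It was -3.63 when the 10 most abundant miRNAs were left out of the library sizes, and with miR-34c-5p added, chosen after seeing the data, it was -1.50, and -1.15 between 10 and 0 μM. The depth limits miR-449a-5p most, with 3 counts at 100 μM.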
